A study of Homo sapiens with 38 samples.

Results

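Endogenous Sp1 peaks without a counterpart in the peak list of induced wild-type Sp1 (Sp1 WT) made up 460 of the 2312 regions called for endogenous Sp1. They were chosen as regions of the parental V5 lists that overlap no peak of the Sp1 WT FLAG list. CUT&RUN (antibody-directed cleavage of chromatin and sequencing of the released fragments) had been done in U-2 OS osteosarcoma cells, an established line, whose endogenous SP1 gene carries a V5-Halo knock-in. All groups carried this knock-in, were treated with 1 μg/ml doxycycline for 36 h, sorted by flow cytometry and kept in doxycycline for a further 36 h. The knock-in line is a single clone. The parental line (CTRL) expresses no FLAG construct and was profiled with a rabbit and a mouse antibody against V5. The derived lines express SNAP-tagged, FLAG-tagged constructs from a doxycycline-inducible transgene at AAVS1: Sp1 WT, a Sp1 mutant, the Sp1 DNA-binding domain (DBD), an EWS chimera of that DBD, the Sp1 intrinsically disordered region (IDR) fused to LacI or to the CTCF DBD, LacI alone, the CTCF DBD alone and SNAP-NLS. Of these, the Sp1 WT line and both Sp1 IDR chimera lines were also profiled with both V5 antibodies. The 38 samples fall into 19 pairs of line and antibody with 2 replicates each, and every pair has 1 deposited list of the peaks that its replicates shared reproducibly. The lists do not hold depth, and the study's read numbers were not used here.

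The rabbit anti-V5 list of the parental line held 1987 peaks and the mouse anti-V5 list 1830. Merged where they overlapped, they gave 2312 regions. Regions that shared no base with any of the 5151 peaks of the Sp1 WT FLAG list numbered 460, which is 19.9% of all parental regions. The other 1852 regions, those with a Sp1 WT FLAG peak, served for comparison. Members were thus chosen by presence in the parental V5 lists and absence from the Sp1 WT FLAG list, which are measured peak calls, and these properties are given as description only. Of the 460 members, 247 were found with both antibodies (53.7%, against 64.8% of all parental regions), 154 with the rabbit antibody only and 59 with the mouse antibody only.

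Sp1 is a zinc-finger transcription factor that recognises GC boxes, short G-rich elements that are common in the promoters of broadly expressed genes. Its DBD lies toward the C terminus and its long N-terminal IDR carries the activation domains. The V5 antibodies target endogenous tagged Sp1, and the FLAG antibodies target the induced construct. The regions described here were thus called with V5 in the parental line and not with FLAG in the Sp1 WT line. All samples came from cells with the V5 knock-in, so there was no V5 list of untagged cells. Background of the V5 antibodies was not tested.

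Reference sequences of hg38 around the peak summits of 10 members are shown, up to 100 bp to either side of the summit and on the plus strand. They cover the 2 highest-ranked members in the rabbit list, relatives of the first of these, members seen in every V5 list, and members without a GC box. Capitals mark GGGCGG or its complement CCGCCC in the first 8. PLAUR (chr19:43668467-43668667), EEF2KMT (chr16:5097936-5098136), FAM86GP (chr11:3422783-3422983), LINC02018 (chr3:75435431-75435631), SPAG4 (chr20:35616365-35616565), MYH9 (chr22:36388095-36388295), GRSF1 (chr4:70840028-70840228) and SP1 itself (chr12:53379902-53380102) held between 1 and 9 matches.
PLAUR: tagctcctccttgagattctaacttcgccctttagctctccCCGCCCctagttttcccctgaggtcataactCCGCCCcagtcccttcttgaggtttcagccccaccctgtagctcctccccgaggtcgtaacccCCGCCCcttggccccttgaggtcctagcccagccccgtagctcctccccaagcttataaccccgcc
EEF2KMT: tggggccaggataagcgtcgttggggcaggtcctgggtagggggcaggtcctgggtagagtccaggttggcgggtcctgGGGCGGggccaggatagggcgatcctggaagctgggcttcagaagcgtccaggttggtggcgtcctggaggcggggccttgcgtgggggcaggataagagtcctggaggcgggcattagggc
FAM86GP: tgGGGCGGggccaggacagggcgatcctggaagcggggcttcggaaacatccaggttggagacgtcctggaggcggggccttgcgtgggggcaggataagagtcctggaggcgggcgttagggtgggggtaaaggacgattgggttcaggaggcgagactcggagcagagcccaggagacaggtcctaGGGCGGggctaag
LINC02018: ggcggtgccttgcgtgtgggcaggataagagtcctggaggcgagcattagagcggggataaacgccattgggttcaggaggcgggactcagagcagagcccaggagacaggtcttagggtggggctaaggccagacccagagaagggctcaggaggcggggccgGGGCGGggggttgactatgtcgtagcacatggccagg
SPAG4: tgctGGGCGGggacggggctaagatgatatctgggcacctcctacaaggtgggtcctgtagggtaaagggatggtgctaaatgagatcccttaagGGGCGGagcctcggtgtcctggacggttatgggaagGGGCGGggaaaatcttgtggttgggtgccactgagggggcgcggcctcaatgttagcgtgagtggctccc
MYH9: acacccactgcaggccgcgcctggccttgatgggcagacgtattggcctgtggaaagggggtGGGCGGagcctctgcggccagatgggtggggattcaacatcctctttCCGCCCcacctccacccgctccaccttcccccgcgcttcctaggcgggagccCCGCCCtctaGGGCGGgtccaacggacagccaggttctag
GRSF1: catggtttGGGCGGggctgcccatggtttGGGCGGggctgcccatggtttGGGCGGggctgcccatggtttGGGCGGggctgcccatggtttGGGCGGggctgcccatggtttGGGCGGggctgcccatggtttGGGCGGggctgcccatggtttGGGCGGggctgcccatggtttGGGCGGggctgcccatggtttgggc
SP1: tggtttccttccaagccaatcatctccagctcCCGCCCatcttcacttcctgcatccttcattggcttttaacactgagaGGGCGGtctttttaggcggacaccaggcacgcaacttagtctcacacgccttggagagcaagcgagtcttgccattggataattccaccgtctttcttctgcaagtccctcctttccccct

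GRSF1 had 9 GC boxes at a constant spacing of 21 bp, a tandem repeat. Some highly ranked members lacked the element. In STIP1 (chr11:64185825-64186019; capitals mark CCAAT or ATTGG) the window held 5 CCAAT boxes and no GC box. In an exon of LINC02870 (chr10:132448810-132449010; capitals mark GGGTGG or CCACCC) it held 7 copies of CCACCC spaced by 31 bp, and no GC box. LINC02870 was chosen for display after its values were seen. GGGCGG was found in 81.6% of the equally long windows of all parental regions, CCAAT in 44.9% and GGGTGG in 35.6%.
STIP1: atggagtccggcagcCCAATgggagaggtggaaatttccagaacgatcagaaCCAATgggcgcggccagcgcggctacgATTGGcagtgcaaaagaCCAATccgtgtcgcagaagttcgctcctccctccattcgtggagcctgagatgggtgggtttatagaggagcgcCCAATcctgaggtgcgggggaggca
LINC02870: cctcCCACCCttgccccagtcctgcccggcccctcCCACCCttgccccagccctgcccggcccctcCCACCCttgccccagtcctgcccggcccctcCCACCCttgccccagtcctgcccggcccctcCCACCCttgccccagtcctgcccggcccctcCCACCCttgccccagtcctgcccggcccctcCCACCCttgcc

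Members were found at all ranks of the endogenous lists. Both of the highest-ranked peaks of the rabbit list lacked a Sp1 WT FLAG peak. At the start of EEF2KMT, which encodes a methyltransferase of elongation factor 2, the rabbit replicates gave −log10 p values of 162 and 169 (rank 1) and the mouse replicates 189.7 and 252 (rank 3). At PLAUR, the gene of the urokinase receptor, they gave 158 and 171 (rank 2) with the rabbit antibody and 179 and 288 (rank 6) with the mouse antibody. At SPAG4, a nuclear envelope protein gene, the values were 129.9 and 145 in the rabbit replicates (rank 18) and 155 and 253 in the mouse replicates (rank 16). These values are the authors' peak-calling p-values, where a higher value is a stronger peak, and they depend on depth, so they are compared only as ranks within a list.

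All 2312 regions were ordered by the higher of their within-list percentiles and divided into 4 rank classes of equal size. The share without a Sp1 WT FLAG peak was 20.1% (Wilson 95% interval 17.0 to 23.5) in rank class 1, the highest, 15.7% in class 2, 20.4% in class 3 and 23.4% (20.1 to 27.0) in class 4. Of the 232 highest-ranked regions, 52 were members (22.4%). The median percentile was 44.1 for members and 51.3 for the others.

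**Figure D1:**
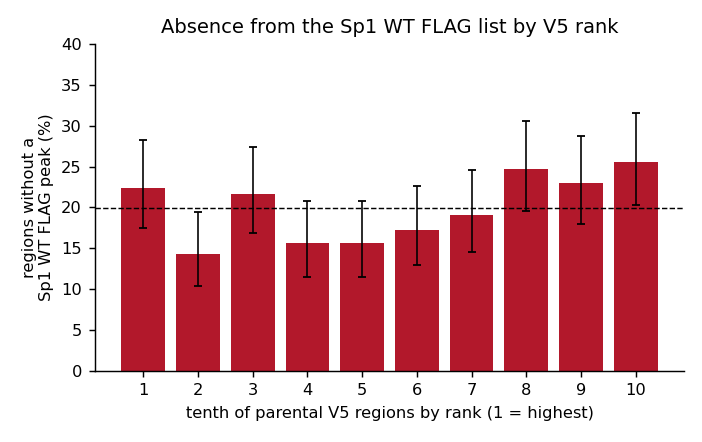
Share of parental V5 regions without a Sp1 WT FLAG peak (y axis, percent) in 10 bins of regions by V5 rank (x axis, 1 is the highest). Bars are shares, error bars are 95% Wilson intervals and the dashed line is the share over all regions, 19.9%; the highest bin stands at 22.4% and the lowest at 25.5%.

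The same 232 strongest regions were looked up in all V5 lists and in the FLAG lists named below. This was to see how often a strong region is missing from a list of reproducible peaks. The parental rabbit and mouse lists, from which the ranks came, lacked 10 and 11 of them. The 6 V5 lists of the induced lines lacked between 11 and 25 (4.74% to 10.8%). The Sp1 DBD FLAG list, with 3277 peaks, lacked 30 (12.9%) and the EWS chimera FLAG list, with 2535 peaks, lacked 49 (21.1%). The CTCF DBD and Sp1 IDR-CTCF DBD FLAG lists, whose constructs lack the Sp1 DBD, lacked 223 (96.1%) and 231 (99.6%). The Sp1 WT FLAG list was the longest of these lists and lacked 52, which are members by the rule. Single strong members were missing from V5 lists too. EEF2KMT was in 5 of the 6 V5 lists of the induced lines, with −log10 p values between 133 and 147, and was missing from the rabbit list of the Sp1 WT line. The start of ENSG00000286895, a long noncoding RNA gene, ranked 4th in the parental mouse list and was missing from the parental rabbit list, while the rabbit lists of the 3 induced lines held it with −log10 p values of 142, 167 and 151. Absence from a single list is thus reported here as absence from that list, and whether construct binding was absent there was not tested.

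Peak strength in the replicates of the parental lists is given as a description, since only peaks with reproducible ranks between these replicates were in the lists. The rank correlation (Spearman's rho) was 0.838 over 402 rabbit peaks and 0.885 over 307 mouse peaks of members, and 0.828 and 0.862 for the other regions. Between the antibodies it was 0.841 over the 247 members found with both and 0.821 for the other regions. Peaks are not independent, and no p is given for these correlations. The replicate given second to the reproducibility test was higher at 378 of the 402 rabbit peaks and at all 307 mouse peaks. Which labelled replicate this is was not known.

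**Figure D2:**
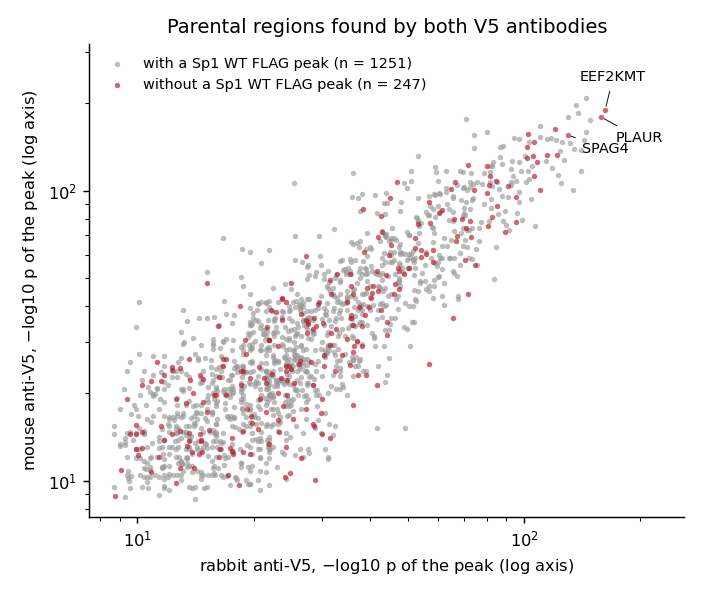
Peak strength with the rabbit (x axis) and mouse (y axis) anti-V5 antibodies in the parental line, −log10 p on log axes, for the regions found with both. Each point is a region; the 247 members are spread over the whole range of the 1251 other regions, and EEF2KMT, PLAUR and SPAG4 lie at the upper end.

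Distances from members to the induced Sp1 peaks are a description, since absence of overlap with these peaks chose the members. The other regions overlap such a peak by the rule, so they give no distances to compare. The nearest Sp1 WT FLAG peak lay a median of 51932 bp away, over the 457 members with such a peak on the same sequence. No such peak lay within 1000 bp of 452 members (98.3% of all 460), within 10000 bp of 378 or within 100000 bp of 158. These counts include the members without such a peak on their sequence. At the border of the rule, the closest members were at U2AF1L4 (149 bp), PKMYT1 (324 bp) and PLIN3 (425 bp), and the 3 least overlapping regions on the other side shared 204, 205 and 208 bp. The median width was 703 bp in members and 685 bp in the others.

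Most members were promoters. A transcription start of GENCODE 44 lay within 1000 bp of the summit in 388 of 460 (84.3%, 80.7 to 87.4), against 89.3% of all parental regions and 90.5% of the other regions (odds ratio 0.57, adjusted p = 5.0e-04 by Fisher's exact test, two-sided, with Benjamini-Hochberg adjustment over 24 tests). Regions are not replicates, so this and the following p-values compare the lists and not cultures. A protein-coding start lay within 1000 bp of the summit in 352 members, whether or not another start was nearer. Of the rest, 36 were at starts of other genes, 40 in introns, 3 in exons and 29 between genes. Where there was a start, it lay a median of 115 bp from the summit in both sets. Starts of protein-coding genes in both directions were found at 53 members (11.5%) and 16.7% of the other regions.

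A GC box within 100 bp of the summit was present in 347 members (75.4%, 71.3 to 79.1), against 81.6% of all parental regions. In windows of equal length 2000 bp to either side of members, it was present in 86 of 920 (9.35%; adjusted p = 8.5e-138, Fisher's exact test). The other regions had a higher share, 83.1% (odds ratio 0.62, Fisher's exact test, adjusted p = 4.7e-04). With the longer form GGGGCGGGG the shares were 37.6% and 40.4%, a difference that did not pass the test (Fisher's exact test, adjusted p = 0.36). CCAAT, the element of NF-Y, was found in 43.0% of members and 45.4% of the others, and the ETS element CCGGAAG in 8.70% and 9.61%. The AP-1 element TGANTCA stood at 6.09% and 3.67%, with 5.11% in the flanking windows. These windows were not matched for GC content or transcription starts, and the GC box test did not pair each window with its own member. CCAAT stood at 19.7% in the windows and CCGGAAG at 1.20%, so a higher share at the summits was not particular to the GC box. These letters were searched on both strands and a match is a description of the sequence, not a bound site.

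Members found by the rabbit antibody only had fewer GC boxes and starts than other regions found in the same way. In these 154, a GC box was found in 57.8% (49.9 to 65.3), against 76.9% of the 329 other regions found with the rabbit antibody only (Fisher's exact test, adjusted p = 6.2e-05). A start was found in 72.7% against 90.9% (Fisher's exact test, adjusted p = 1.6e-06). In the 247 members found with both antibodies the corresponding shares were 85.4% against 84.4% for the GC box (Fisher's exact test, adjusted p = 0.84) and 90.3% against 91.0% for a start (adjusted p = 0.78). By rank, the gaps passed the test in rank class 4, with 63.7% of members and 83.3% of the others for the GC box (Fisher's exact test, adjusted p = 8.6e-06) and 78.5% and 90.7% for a start (7.7e-04), and in none of classes 1 to 3. Whether the gaps differ between antibody or rank classes was not tested. The rabbit-only members were also the weaker peaks, with a median −log10 p of 13.1 in the rabbit list, against 28.5 for the members found with both. Of the 72 members without a start, 42 were rabbit-only (58.3%), 32 had a GC box (44.4%) and 18 had TGANTCA (25.0%). Among the 176 other regions without a start, the shares were 17.0%, 61.9% and 12.5%, and the differences were not tested.

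**Figure D3:**
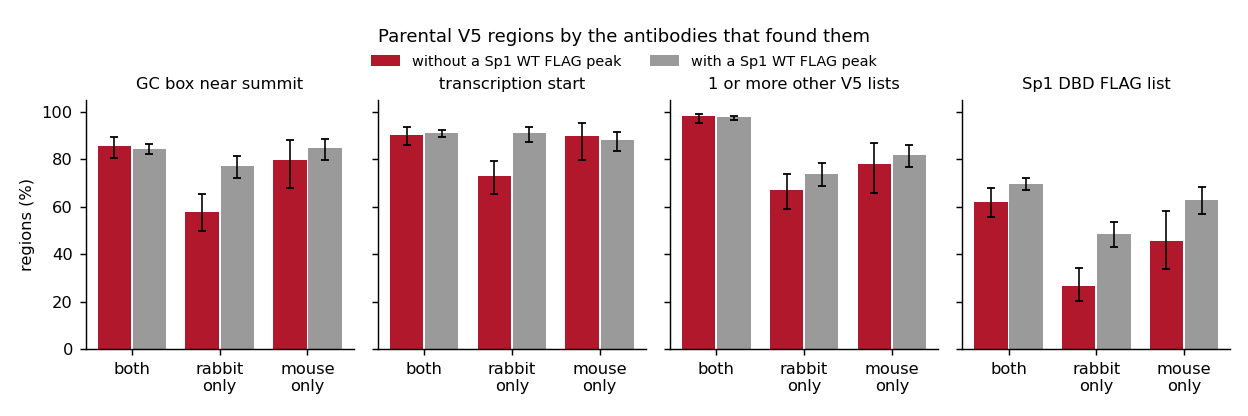
Shares (percent, y axis) of parental V5 regions with a GC box near the summit, with a transcription start, with a peak in 1 or more of the other V5 lists and with a Sp1 DBD FLAG peak, by the antibodies that found them. Red bars are members, grey bars the other regions, and error bars are 95% Wilson intervals; rabbit-only members are lowest in each panel, at 57.8%, 72.7%, 66.9% and 26.6%.

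Endogenous Sp1 was called again at most members in the induced lines. At least 1 of the 6 V5 lists of these lines held 391 members (85.0%), against 89.8% of all parental regions and 91.0% of the other regions (Fisher's exact test, adjusted p = 5.0e-04). All 6 held 138 members (30.0%, background 36.2%), and none held 69. Of the 138, 130 had been found with both antibodies in the parental line. In rank classes 1 and 2, all 116 and 91 members were found again in at least 1 list, as were 99.8% and 99.4% of the other regions, so recurrence was near its limit at these ranks. Within the 247 members found with both antibodies, 242 were found again (98.0%), against 97.6% of the comparable other regions (Fisher's exact test, adjusted p = 1).

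Per list, the rabbit list of the Sp1 WT line held 272 members (59.1%, background 64.0%; 65.2% of the others, Fisher's exact test, adjusted p = 0.023). The mouse list of that line held 212 (46.1%, background 52.9%; 54.6% of the others, Fisher's exact test, adjusted p = 0.0021). In the Sp1 IDR-LacI line the rabbit list held 306 (66.5%, background 75.8%; 78.1%, Fisher's exact test, adjusted p = 1.9e-06) and the mouse list 251 (54.6%, background 64.6%; 67.1%, adjusted p = 2.0e-06). In the Sp1 IDR-CTCF DBD line the rabbit list held 301 (65.4%, background 74.7%; 76.9%, Fisher's exact test, adjusted p = 2.2e-06) and the mouse list 227 (49.3%, background 55.8%; 57.4%, adjusted p = 0.0032). In each of the 6 lists the share of members was lower than that of the others. The call was lost for the Sp1 WT rabbit list with parental peaks at a reproducibility threshold of 0.05 (68.3% against 71.0%, Fisher's exact test, adjusted p = 0.40) and with lists of equal length (48.0% against 51.8%, adjusted p = 0.21). It was also lost for the Sp1 WT mouse list at 0.05 (54.9% against 60.2%, Fisher's exact test, adjusted p = 0.085) and for the Sp1 IDR-CTCF DBD mouse list without repeated sequence (51.9% against 57.4%, adjusted p = 0.064). In the Sp1 WT line, whose FLAG list defined the members, this order was turned around in rank class 1 for the rabbit list (95.7% of members, 95.0% of the others, Fisher's exact test, adjusted p = 1). For the Sp1 IDR-CTCF DBD mouse list the gap passed in no rank class (Fisher's exact test, adjusted p from 0.21 to 0.59). It also passed in no antibody class (0.35 to 0.64). Each other V5 list also had classes in which its gap did not pass, and the classes hold fewer regions.

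**Figure D4:**
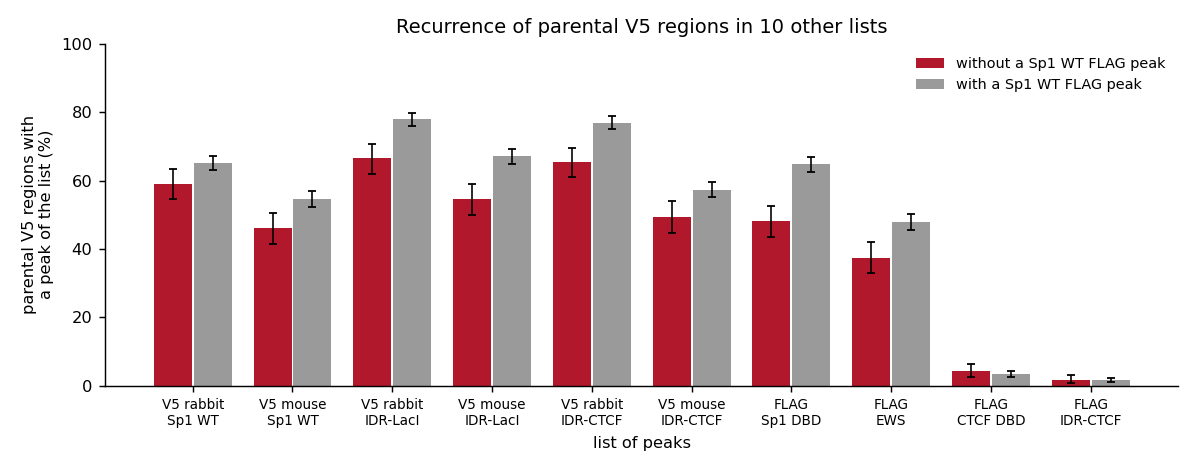
Share of parental V5 regions with a peak in each of 10 other lists (y axis, percent; x axis, antibody and line). Red bars are the 460 members, grey bars the 1852 other regions, and error bars are 95% Wilson intervals; the largest gap is in the Sp1 DBD FLAG list, 48.0% against 64.8%.

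Members found with the rabbit antibody only came back more often with that antibody. Any of the 3 rabbit lists of the induced lines held 100 of these 154 (64.9%) and any of the 3 mouse lists held 36 (23.4%). Of the members that came back with only 1 of the antibodies, 67 were in rabbit lists and 3 in mouse lists (exact binomial test, adjusted p = 1.2e-15). The same order was seen in each line, with 50 against 15 members in the Sp1 WT line, 68 against 24 in the Sp1 IDR-LacI line and 63 against 19 in the Sp1 IDR-CTCF DBD line. The rabbit lists were the longer in every line, and with all 6 lists cut to the length of the shortest the order held (35.1% against 16.2%). The other regions found with the rabbit antibody only showed the same order, with 69.6% of 329 in any rabbit list and 32.2% in any mouse list, so it was not particular to members. For mouse-only members the difference did not pass the test: 41 of 59 were in a rabbit list and 37 in a mouse list (exact binomial test, adjusted p = 0.48).

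The induced constructs that keep the Sp1 DBD were called at a large part of the members. The Sp1 DBD FLAG list held 221 of 460 (48.0%, 43.5 to 52.6), against 61.5% of all parental regions and 64.8% of the others (Fisher's exact test, odds ratio 0.50, adjusted p = 6.0e-10). The EWS chimera FLAG list held 172 (37.4%, 33.1 to 41.9), against 45.8% of all parental regions and 47.9% of the others (Fisher's exact test, adjusted p = 1.1e-04). At least 1 of these lists held 261 members (56.7%, against 67.5% of all parental regions) and both held 132 (28.7% against 39.8%). Over rank classes 1 to 4, the Sp1 DBD share was 75.9%, 49.5%, 45.8% and 25.2% in members and 81.6%, 66.5%, 60.9% and 49.4% in the others. The gap passed the test in classes 2 (Fisher's exact test, adjusted p = 0.0045), 3 (0.0055) and 4 (2.0e-06) and not in class 1 (0.24). Within the members found with both antibodies, the Sp1 DBD share was 61.9% against 69.5% of comparable regions (Fisher's exact test, adjusted p = 0.027), and the EWS share 48.2% against 51.3% (adjusted p = 0.48).

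In the Sp1 DBD list, the highest members were at ATXN7L3, a subunit of the SAGA deubiquitinase module (−log10 p of 75.3), SAP130, a Sin3 corepressor subunit (70.7), ENSG00000279161 (65.0) and OGG1, a DNA glycosylase for oxidised guanine (59.6), besides an intergenic region. In the EWS list they were at SP1 itself (62.6), PLEKHH3 (61.9), ZBTB20, a zinc-finger repressor (57.7), SAP130 (56.4) and RASA4 (51.4). The SP1 promoter was found with both antibodies in the parental line (replicates 72.7 and 117 with rabbit, 78.4 and 152 with mouse), in all 6 other V5 lists and in both of these FLAG lists, and the nearest Sp1 WT FLAG peak was 40309 bp away. ATXN7L3 ranked lower in the V5 lists (rank 569 with rabbit, 660 with mouse) and was in 3 of the 6.

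The CTCF DBD FLAG list held 19 members (4.13%, background 3.50%) and 3.35% of the others (Fisher's exact test, adjusted p = 0.48), and the Sp1 IDR-CTCF DBD FLAG list held 7 (1.52%, background 1.51%; 1.51% of the others, adjusted p = 1). The highest in the CTCF DBD list were an intron of SRF, the serum response factor gene (14.7), ENSG00000289222 (14.4), TESK1 (14.3), G3BP1, a stress granule protein gene (14.3), and CENPM, a centromere protein gene (12.6). The 6 background lists, namely parental FLAG with the mouse and the rabbit antibody and SNAP-NLS, LacI, Sp1 IDR-LacI and Sp1 mutant FLAG, together held 4 members (0.870%, background 0.260%), and 2 of the other regions (0.108%; Fisher's exact test, adjusted p = 0.023). All 4 were rabbit-only, in repeated sequence and outside genes. The authors' table for Sp1 WT against LacI held 7970 regions, of which 98.9% overlapped a peak of some FLAG list, so absence from the table was not read as absence of signal. All 266 members with a peak of the Sp1 DBD, EWS chimera, CTCF DBD or Sp1 IDR-CTCF DBD overlapped a region of that table. Of the 194 members with none of these, 11 did (5.67%). Because the table's regions are nearly all at FLAG peaks, this overlap does not show a difference between Sp1 WT and LacI. Only its positions were used.

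Among the 232 highest-ranked regions, 90.4% of the 52 members and 91.1% of the 180 others had been found with both antibodies, and 88.5% and 85.0% had a GC box. All 6 other V5 lists held 57.7% of these members (44.2 to 70.1) and 82.8% of the others (76.6 to 87.6). The Sp1 DBD FLAG list held 82.7% and 88.3%, and the EWS chimera list 67.3% and 82.2%. These shares are a description, and no test was run on them. MYH9, the gene of a nonmuscle myosin heavy chain, was in every V5 list (parental replicates 106 and 120.1 with rabbit, 132 and 196 with mouse) and in neither of these FLAG lists. STIP1, the gene of an HSP70 and HSP90 co-chaperone, also was in every V5 list (89.3 and 96.0 with rabbit, 72.1 and 95.7 with mouse), although its window has no GC box.

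**Figure D5:**
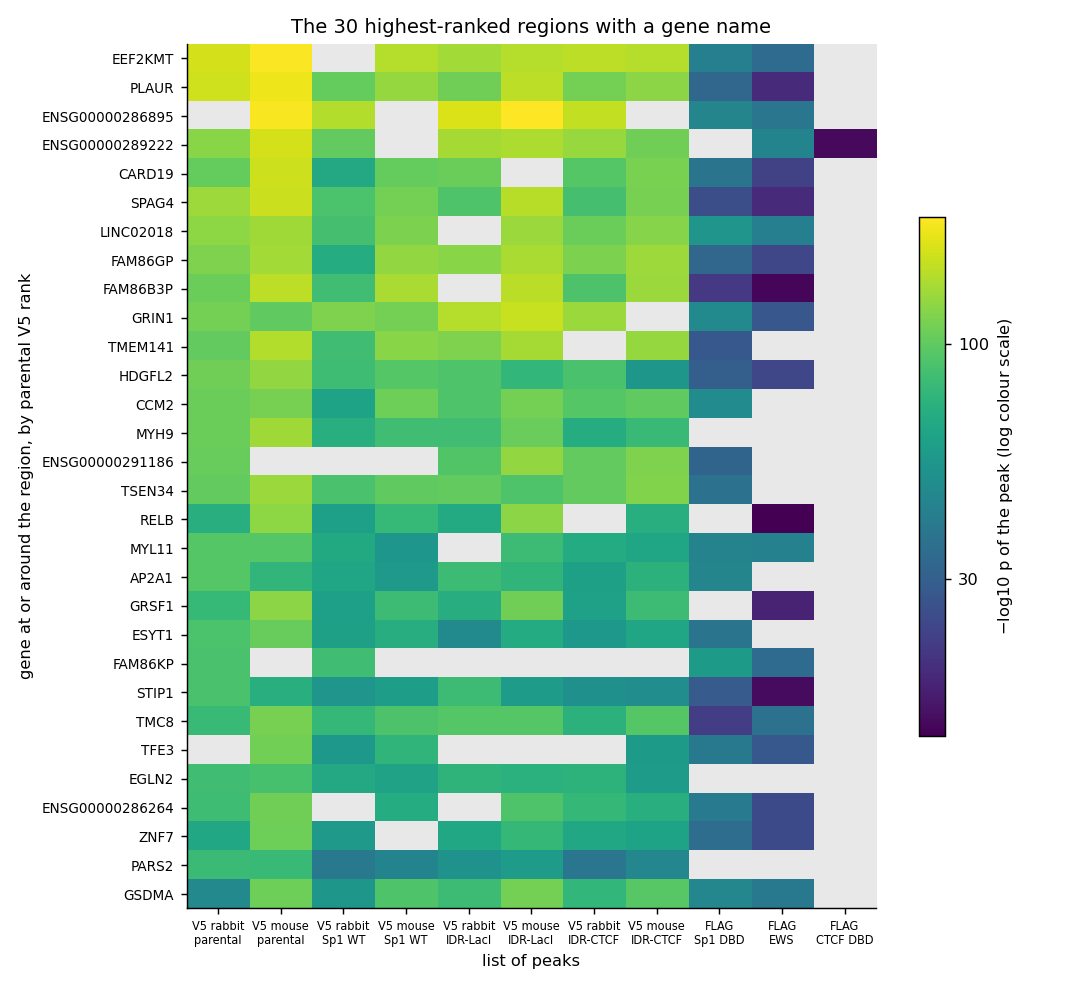
Peak strength of the 30 highest-ranked members with a gene name (y axis, in order of parental V5 rank) in 8 V5 and 3 FLAG lists (x axis). Colour is −log10 p of the overlapping peak on a log scale and grey means no peak; 15 of the 30 are coloured in all 6 V5 lists of the induced lines, and 25 in at least 5.

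Some of the strongest members lie in related sequence. EEF2KMT and the FAM86 genes and pseudogenes derive from a duplicated family, and 4 of the 7 parental regions named for it were members (EEF2KMT, FAM86GP, FAM86B3P and FAM86KP). The regions of LINC02018 and ENSG00000286895 share stretches with them, and 266 of the 1305 words of 31 bases in the EEF2KMT region also occur in that of LINC02018 (20.4%). All 6 regions at SNORD3 genes, which encode the U3 small nucleolar RNA of ribosomal RNA processing, were members, as were all 5 regions in ribosomal RNA repeats on chromosome 21, each of the latter rabbit-only. Reads from such copies cannot be assigned to a single locus with certainty, so these peaks are uncertain in position.

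Repeated sequence, defined as a summit window with at least 50% of its 31-base words occurring more than once in the genome, was found in 44 members (9.57%, background 6.49%) and 5.72% of the other regions (Fisher's exact test, odds ratio 1.74, adjusted p = 0.0062). Rabbit-only members made up 25 of these 44, with 16 found by both antibodies and 3 by the mouse antibody. The part of repeated sequence in the absence from the Sp1 WT FLAG list was not tested. Over chromosomes 1 to 22 and X, the share of members ran from 10.2% on chromosome 15 (6 of 59) to 41.4% on chromosome 21 (12 of 29, 25.5 to 59.3), where 6 of the 12 were in repeated sequence. On chromosome 6 it was 29.8% (31 of 104) with none in repeated sequence.

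Gene groups are given by the number of regions at a protein-coding start, against the 19.9% of all parental regions that were members. Because absence from the Sp1 WT FLAG list chose the members, these counts are a description. Genes listed by symbol as translation initiation factors, whatever their role, had 6 members among 17 regions. They included EIF3E and EIF3H (eIF3 subunits, both at starts shared with a neighbouring gene), EIF4A1 (the RNA helicase of eIF4F) and EIF4B (its cofactor). The others were EIF4EBP2 (a repressor that binds the cap-binding protein eIF4E) and EIF5A2. EIF4B was the strongest of the group and was in all 6 other V5 lists. Its values were 38.9 and 61.4 in the rabbit replicates and 37.4 and 81.9 in the mouse replicates. EIF4A1 was in rank class 3 and in 5 of the 6. EIF3E, EIF3H, EIF4EBP2 and EIF5A2 were in rank class 4, the lowest, and in 2, 0, 1 and 1 of the 6. Cytosolic ribosomal proteins had 3 of 9 (RPL10, RPL13A and RPS12). RPL13A and RPS12 were rabbit-only, near the lower end of that list (ranks 1957 and 1827), and in none of the other 6 V5 lists.

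Among transcription factor genes, C2H2 zinc fingers had 10 members of 68 regions (14.7%), SP and KLF factors 1 of 7 (SP1), AP-1 and ATF factors 2 of 5 and cell cycle regulators 2 of 14 (CCND3, a D-type cyclin, and E2F3). ATF5 was strong and recurrent, with 48.9 and 68.3 in the rabbit replicates, 51.7 and 112 in the mouse replicates and a peak in all 6 other V5 lists. JUN was weak, with 17.6 and 29.8 in the rabbit replicates, 14.1 and 34.2 in the mouse replicates and a peak in 1 of the 6. ZBTB20 was in all 6 V5 lists and in the Sp1 DBD and EWS lists.

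Ubiquitin ligases and conjugation had 6 of 44, solute carriers 4 of 37, splicing factors 2 of 16, and mitochondrial ribosomal proteins and oxidative phosphorylation 1 of 11 each. The proteasome had 1 of 10 (PSMB9, an immunoproteasome subunit), DNA replication 1 of 12 (MCM10), aminoacyl-tRNA synthetases 1 of 9 (PARS2) and replication-dependent histones 1 of 2 (H3C15). None of the 7 regions at Mediator, TFIID and RNA polymerase II genes, none of the 7 at cholesterol and fatty acid synthesis genes and not the single HOX region was a member.

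Of the 69 members in none of the other V5 lists, 51 were rabbit-only (73.9%), 13 mouse-only and 5 found by both antibodies. Rabbit-only regions also were the largest class among the 166 other regions that did not recur, with 86 (51.8%). Members that did recur ranked as high in the other V5 lists as the other regions did, with median percentiles between 55.7 and 62.7 against 52.0 to 58.3. In the rabbit lists of all 3 induced lines, the peak of rank 1 was at a member. In the mouse lists it was at one of the other regions, and the best-ranked member stood at rank 9 in the Sp1 WT line, 2 in the Sp1 IDR-LacI line and 6 in the Sp1 IDR-CTCF DBD line. Among the 10 strongest members of each parental list, ENSG00000286895 had the highest value in all 3 rabbit lists of the induced lines. Its summit lies in repeated sequence, with 58.5% of its words repeated.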

How the data were processed

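Peak lists from 38 CUT&RUN samples (2 replicates of 19 combinations of line and antibody) were analysed. Per the study's methods, adapters were cut by the authors (Cutadapt 2.6), read pairs were mapped to the hg38 assembly (Bowtie2 2.3.5.1) and deduplicated (SAMtools 1.9), and peaks came from MACS3 (given as 2.2.7.1). The authors kept peaks reproducible between replicates at an irreproducible discovery rate of at most 0.1, ranking by p. Each deposited list holds positions and −log10 p values of the merged peak and of both replicates, and a deposited score, the −log10 of the global irreproducible discovery rate. The merged −log10 p is the smaller of the replicate values. The order of the replicates in the lists could not be tied to the labels. The lists do not hold depth, and the read numbers that the study lists were not used here. The authors' 6 tables of differential regions between FLAG samples hold positions with likelihood ratios of their comparisons. The positions of 1 were used, and 5 were not used.

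Parental V5 peaks were merged where they shared at least 1 bp, and regions with at least 1 bp in the Sp1 WT FLAG list were set apart. Each region took the higher of its within-list percentiles as rank and the summit of that peak. Motifs were searched on both strands of hg38 within 100 bp of the summit, starts were those of GENCODE 44 within 1000 bp, and repeated sequence was taken from 31-base words counted over 194 reference sequences. Shares were compared with two-sided Fisher's exact tests and recurrence by antibody with exact binomial tests on discordant members. P-values of the main tests were adjusted over 24 tests (Benjamini-Hochberg, threshold 0.05). The 199 values under alternatives and within rank or antibody classes were not adjusted together. Each took the place of its main test among the 24, so these adjusted p-values do not account for the number of alternatives. Intervals are 95% Wilson intervals and cover counting error over regions only. The study describes the CUT&RUN replicates as independent biological replicates. Python 3.11.15, SciPy 1.17.1, pysam 0.24.0 and bedtools 2.31.1 (as a check of overlaps) were used, and the functions were tested on simulated data.

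Members and gene lists were chosen with earlier results of these data known. Genes named are the 10 strongest members in each parental list, up to 15 found by both antibodies and in all 6 other V5 lists, the 5 strongest in the Sp1 DBD, EWS chimera and CTCF DBD lists, members of the gene lists and those nearest the border of the rule, besides members named as belonging to a family or as examples. A region's gene is the nearest protein-coding start, then any other start, then the gene it lies in. Alternatives changed the threshold, the overlap, the distances, the motif, the rank class and the antibody class.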

Additional observations from a re-analysis of the deposited data

How the results depend on the processing

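The number of members ran from 379 to 527 under 5 alternatives of threshold, overlap, distance and chromosomes, and was 257 (17.7% of regions) at a threshold of 0.01 in the parental lists. Of 95 alternative values of the main tested results, 64 kept their direction and side of the test's threshold, and of 104 for single lists 68 did. Those that did not mostly came from classes by rank or antibody, which hold fewer regions. Alternatives without repeated sequence, with the replicate's own summit, by antibody class for starts and the DBD and EWS lists, and all those for the shares in repeated sequence and in the background lists were chosen after seeing the data.

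In rank class 1, the highest, members and other regions had a GC box in 85.3% and 85.1%, a start in 87.9% and 90.7%, a V5 peak elsewhere in 100% and 99.8%, a Sp1 DBD peak in 75.9% and 81.6%, an EWS peak in 64.7% and 69.3%, and repeated sequence in 10.3% and 7.36%, none past the threshold (adjusted p from 0.24 to 1, Fisher's exact test). In rank class 2 the shares were 74.7% and 83.6% for a GC box, 89.0% and 90.8% for a start, 100% and 99.4% for V5, 39.6% and 45.0% for EWS and 2.2% and 4.11% for repeated sequence, none past it, while the Sp1 DBD share was past it (49.5% and 66.5%, Fisher's exact test, adjusted p = 0.0045). Class 3 gave 79.7% and 80.4% for a GC box and 83.9% and 89.8% for a start, none past it. Class 4 gave 61.5% and 71.1% for V5, not past it, and 63.7% and 83.3% for a GC box (Fisher's exact test, adjusted p = 8.6e-06), 78.5% and 90.7% for a start (7.7e-04), 25.2% and 49.4% for Sp1 DBD (2.0e-06), 18.5% and 33.2% for EWS (0.0021) and 11.1% and 5.64% for repeated sequence (0.045).

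In members found with both antibodies the GC box stood at 85.4% (84.4% in others), a start at 90.3% (91.0%), V5 recurrence at 98.0% (97.6%), EWS at 48.2% (51.3%) and repeated sequence at 6.48% (5.04% in others), none past the threshold. In mouse-only members the corresponding shares were 79.7% (84.6% in others), 89.8% (87.9%), 78.0% (81.6%), 40.7% (49.6%) and 5.08% (9.19%), none past it, while Sp1 DBD was (45.8% and 62.9%, Fisher's exact test, adjusted p = 0.025). V5 recurrence of rabbit-only members was 66.9% (73.9% in others), not past it. Repeated sequence stood at 16.2% in rabbit-only members and 5.47% in the other rabbit-only regions. The motif GGGGCGGGG (37.6% and 40.4%), starts within 5000 bp (92.4% and 94.8%) and V5 recurrence at a threshold of 0.05 (92.1% and 94.6%) did not pass either. For the 6 background lists the share of members was 0.528% at a threshold of 0.05 and 0.440% on chromosomes 1 to 22 and X, not past the threshold, and 0 outside repeated sequence, where the other regions also had 0. The causes were not tested.

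For single V5 lists, the order turned in the Sp1 WT rabbit list in rank classes 1 and 2 (95.7% and 83.5% of members) and, in members found with both antibodies, in the Sp1 WT rabbit (81.0%), Sp1 WT mouse (72.1%) and Sp1 IDR-CTCF DBD mouse (75.3%) lists. In rank class 2 the CTCF DBD list held 9.89% of members and 3.29% of others (Fisher's exact test, adjusted p = 0.013). This was 1 of 10 alternatives for that list, and the rest did not pass. Whether any gap differs between ranks or antibody classes was not tested.

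No paired analysis was possible because each list is the joint result of both replicates, and for the same reason no replicate was left out. A p-value here compares lists, not cultures, and the lists differ in length.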
